A study of Mus musculus with 70 samples.

Results

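Potassium channel genes were followed through the pituitary response to thyroid hormone. The genes were all those in the RNA-seq table whose symbol starts with Kcn, each represented by its transcript with the highest mean level and kept where that mean over the 18 libraries was above 0.5 counts per 1000000 mapped reads (CPM). Of 95 Kcn genes in the table, 76 met this rule, against 15042 of 22835 genes overall. Kcnmb3 (0.512 CPM), Kcne4 (0.522) and Kcns1 (0.547) lay just inside the limit, and Kcna7 (0.474), Kcnip1 (0.446) and Kcnmb1 (0.402) just outside it.

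The study asked how triiodothyronine (T3), the active thyroid hormone, acts on pituitary chromatin and transcription, and how far this depends on TRβ, the T3 receptor encoded by Thrb. RNA was taken from adult male wild-type mice and Thrb-/- (Thrb-KO) mice on a C57BL/6J background, with each library made from a pool of 3 pituitaries. All animals drank water with methimazole (MMI, 0.05%) and potassium perchlorate (1%), which block hormone synthesis. The hypothyroid (MMI) groups, with 4 wild-type and 5 Thrb-KO libraries, received nothing more, whereas the hyperthyroid (+T3) groups, also with 4 and 5 libraries, had T3 at 0.5 µg/ml added during the final week. No euthyroid group was included in the RNA-seq, so every T3 response below sets a hyperthyroid against a hypothyroid gland, and both carry the drugs. TRβ binding was taken from untreated mice with a biotin-tagged receptor (Thrb HAB/HAB; Rosa26 BirA/BirA) compared with Rosa26 BirA/BirA controls, with 3 libraries of each merged for pituitary and likewise for cerebral cortex. Pituitary pools held 12 glands, and the methods describe mixed strain backgrounds for these mice where the sample labels state C57BL/6J. Open chromatin was measured by ATAC-seq in nuclei purified through Rosa26 Sun1-GFP, induced by Cre from the Thrb b2 promoter, in 4 hypothyroid and 4 hyperthyroid libraries, each of 1 or 2 pituitaries by the labels and methods, although a legend names pools of 3. The list of T3-regulated ATAC peaks gives no direction of change.

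Potassium channels let potassium leave the cell and so hold the membrane negative, end action potentials and set the pauses between them. Pituitary endocrine cells fire spontaneously, and calcium entering during these spikes drives secretion, so the mix of voltage-gated, calcium-activated, inward rectifier and two-pore leak channels is known to shape hormone release. Channel pores assemble from several subunits, and many Kcn genes encode modifier or auxiliary subunits that form no pore alone but change the gating of others.

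Library size ranged from 21453548 to 55273749 reads, with a median of 34673225. Thrb, the gene targeted in these mice, had no lower CPM in either Thrb-KO group than in wild type under the same treatment. It was 239, 242, 249 and 297 in wild-type MMI, 124, 117, 72.4 and 103 in wild-type +T3, 272, 295, 278, 271 and 239 in Thrb-KO MMI and 288, 301, 239, 245 and 228 in Thrb-KO +T3. The values count the whole transcript, so they do not show whether a targeted exon was lost, and the deposited levels therefore do not check the genotype labels. The hormone treatment showed in both genotypes, with Tshb, the TSH subunit gene, at 2902 to 6462 CPM in wild-type MMI and 40.5 to 422 in wild-type +T3, and at 3212 to 4832 and 84.9 to 169 in the Thrb-KO groups. The libraries also fell into 2 sets that crossed all 4 groups: Lars2, a mitochondrial tRNA ligase gene, measured 2571 to 3420 CPM in replicates 1 and 2 of every group and 53.2 to 95.1 in replicates 3 to 5. Calls lost within one set are given below. These were bulk libraries, in which fewer cells of a type and less RNA per cell cannot be told apart.

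Per kilobase of transcript, mean levels over all libraries were high for Kcnk2 (29.3 CPM per kb), a stretch-sensitive leak channel, Kcnh2 (29.1), the main ERG channel, and Kcnip3 (26.3), a calcium-binding auxiliary protein. Lower values were found for the leak channels Kcnk9 (18.3) and Kcnk1 (17.6), the BK channel subunit Kcnmb4 (15.3), Kcna5 (14.4), and Kcnma1 (13.2), which encodes the pore of the large-conductance calcium-activated (BK) channel. In CPM without length the highest was Kcnq1ot1 at 229, a long noncoding RNA that carries a Kcn symbol but encodes no channel. It is transcribed antisense from within Kcnq1, and reads of the 2 genes cannot be told apart where they overlap, since the counting is not stated to use strand. In all, 28 genes averaged above 10 CPM and 12 below 1, and 54 exceeded 1 CPM in every library. Several of the most abundant genes differed little with T3 on average. Kcnh2 differed by 0.13 ± 0.12 log2 units (SE) between the wild-type groups, Kcnip3 by -0.01 ± 0.15 and Kcnma1 by -0.03 ± 0.16. The Kcnip3 value averages opposite shifts in the library sets. In wild-type replicates 1 and 2 it went from 58.8 and 59.0 to 70.0 and 69.5 CPM. In replicates 3 and 4 it went from 84.8 and 85.3 to 67.1 and 74.4 CPM.

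**Figure D1:**
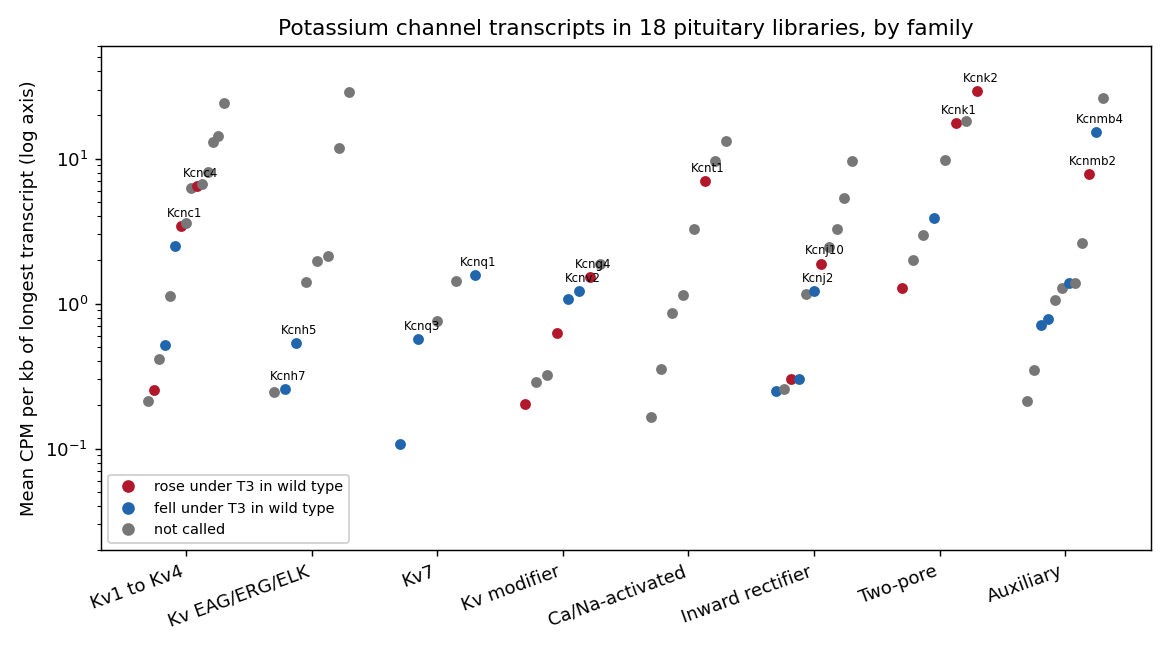
Mean CPM over 18 libraries per kilobase of the longest transcript, on a log axis, for 75 potassium channel genes grouped by family (Kcnq1ot1, which encodes no channel, is not drawn); red points rose and blue points fell in wild-type mice with T3, and grey points were not called. Called genes lay over most of the range, from 0.107 CPM per kb for Kcnq5 to 29.3 for Kcnk2, and names mark up to 2 called genes with the highest level in each family.

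Differences were fitted with limma on log2(CPM + 0.5) across all genes, and a gene was called changed when its adjusted p was below 0.05 and its fold change on that scale at least 1.5, a scale that understates the change of low genes. In wild-type mice T3 changed 30 of the 76 channel genes, where 11.3% of all genes tested were called. Of these, 13 rose (4.6% of all genes did) and 17 fell (6.75%). The median size of the difference was 0.386 log2 units over the channel genes and 0.172 over all genes. The wild-type groups did not overlap for 30 channel genes, 12 higher and 18 lower, where 18.1% of all genes were so separated. These were the called genes other than Kcna1, together with Kcnn1. In Thrb-KO mice only Kcnf1 and Kcnh7 passed the same threshold, both lower, where 1.47% of all genes did. No channel gene rose by this test in Thrb-KO mice. An unadjusted limma p below 0.05, in one direction or the other, was found for 18, a count not made over all genes. Kcnc1, Kcnk1 and Kcnk2 did rise in these mice at an adjusted limma p below 0.05, by less than 1.5-fold. On the whole reads, edgeR called 2 rises there (Kcnc1 and Kcng4) and DESeq2 those and Kcnmb3. Limma called 4 channel genes without Thrb-KO MMI replicate 2 (adding Kcnc1 and Kcnmb3) and 4 without Thrb-KO +T3 replicate 2 (adding Kcng4 and Kcnj2).

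**Figure D2:**
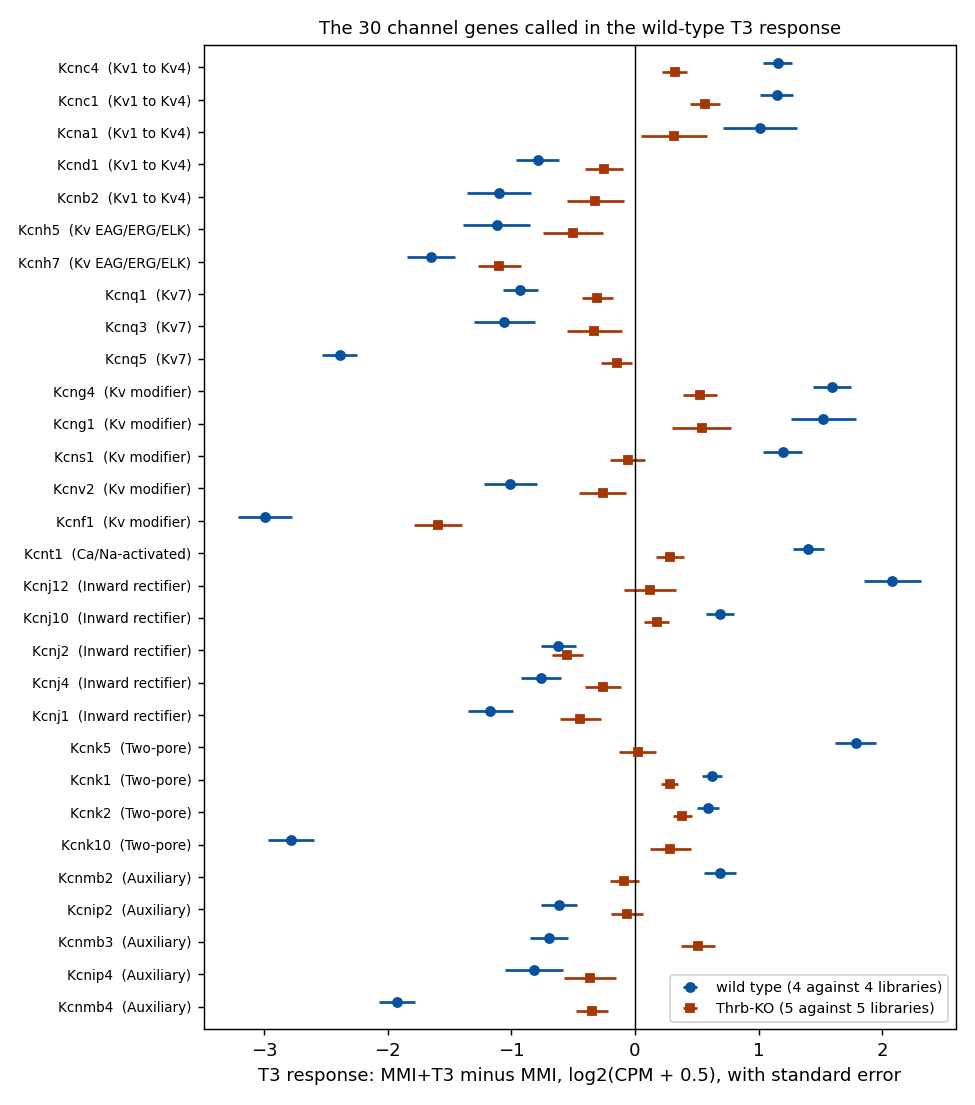
T3 response (+T3 minus MMI, log2(CPM + 0.5), with standard error) of the 30 channel genes called in wild-type mice, in wild type (blue circles, 4 against 4 libraries) and in Thrb-KO (red squares, 5 against 5). Wild-type values ran from -2.99 for Kcnf1 to 2.08 for Kcnj12, and in each of the 30 genes the Thrb-KO point lay closer to 0.

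The two-pore genes encode leak channels that are open at rest and set the resting potential. Of 8 expressed, 3 rose and 1 fell with T3 in wild-type mice, and their median difference was 0.15. Kcnk10, a stretch- and lipid-sensitive channel of the TREK group, was the one that fell. Its CPM was 20.6, 25.0, 23.6 and 19.1 in wild-type MMI and 2.54, 2.34, 2.92 and 3.38 in wild-type +T3, and the groups did not overlap. The log2 fold change was -2.78 ± 0.19 (SE; limma adjusted p = 2.22e-09). In Thrb-KO mice the values were 6.39, 8.41, 6.78, 5.88 and 6.87 under MMI and 7.04, 11.7, 5.43, 8.55 and 10.95 with T3, overlapping each other and lying between the wild-type groups, with a log2 fold change of 0.29 ± 0.17. Kcnk5, an alkali-activated leak channel of the TASK group, went the other way, from 3.62, 3.12, 2.16 and 2.25 CPM to 11.04, 9.23, 10.6 and 11.9 in wild-type mice (1.79 ± 0.17, SE; limma adjusted p = 1.96e-07). All 10 Thrb-KO libraries stayed in the range of wild-type MMI or below it, at 1.69 to 2.98 CPM under MMI and 2.00 to 3.04 with T3. Kcnk5 lies on the chromosome of the deleted gene, 2.089 Mb from Thrb, and position and receptor loss cannot be told apart in these mice. Kcnk1, a weakly conducting leak channel, rose from between 35.3 and 36.1 to between 53.2 and 60.4 CPM (0.62 ± 0.08, SE; limma adjusted p = 7.08e-06), and Kcnk2, the other TREK channel, from between 72.1 and 80.7 to between 109.6 and 120.2 CPM (0.59 ± 0.09, SE; limma adjusted p = 5.10e-05).

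At Kcnk1 and at Kcnk5 a T3-regulated ATAC peak overlapped a pituitary TRβ peak, and the bases shared by both peaks are shown because they hold a near match to the receptor motif beside genes that rose. They are written 5′ to 3′ on the plus strand of mm9, with capitals for the repeat units of a direct repeat, AGGTCA then 4 bases then AGGTCA, matched on either strand with at most 2 mismatches over the 12 bases of the repeat units. The Kcnk1 stretch, chr8:128508069-128508249, lay 10753 bp upstream of the gene, and the Kcnk5 stretch, chr14:20954551-20954811, lay past the 3′ end of the gene, 4469 bp beyond it.
Kcnk1: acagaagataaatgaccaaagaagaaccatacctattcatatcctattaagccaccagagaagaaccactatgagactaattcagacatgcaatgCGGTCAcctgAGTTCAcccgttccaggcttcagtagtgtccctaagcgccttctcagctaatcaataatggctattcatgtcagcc
Kcnk5: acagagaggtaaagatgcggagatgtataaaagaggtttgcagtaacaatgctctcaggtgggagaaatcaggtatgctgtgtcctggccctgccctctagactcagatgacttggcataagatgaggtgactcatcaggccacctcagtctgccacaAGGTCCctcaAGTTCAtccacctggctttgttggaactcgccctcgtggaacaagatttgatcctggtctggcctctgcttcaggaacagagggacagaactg
The TRβ peak at Kcnk1 held 50 reads from tagged mice and 2 from controls, and that at Kcnk5 held 29 and 3. Each repeat matched 10 of the 12 bases. Such a repeat stood in 30.9% of all T3-regulated ATAC peaks and 20.9% of all pituitary TRβ peaks. An overlapping pair of peaks at Kcnj3, whose RNA was not called, held one too. The part of the repeats in the rises was not tested.

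Among the Kv1 to Kv4 genes, which encode most delayed rectifier and A-type pores, 3 of 15 rose and 2 fell, with a median difference of -0.02. Both rising Kv3 genes encode channels that open only at strong depolarization and shut quickly. Kcnc4 measured 14.8, 13.6, 11.7 and 10.98 CPM in wild-type MMI and 30.6, 30.6, 23.4 and 31.8 in wild-type +T3, a difference of 1.16 ± 0.12 (SE; limma adjusted p = 5.25e-07). Kcnc1 rose from between 13.8 and 21.6 to between 32.1 and 45.1 CPM (1.15 ± 0.13, SE; limma adjusted p = 3.20e-06). In neither gene did the wild-type groups overlap. Kcna1, a low-threshold channel, rose from between 0.987 and 2.197 to between 1.99 and 6.13 CPM with overlapping groups (1.01 ± 0.30, SE; limma adjusted p = 0.022). Kcnb2, a slow delayed rectifier of the Kv2 family, fell from between 11.7 and 20.0 to between 5.07 and 10.2 CPM (-1.10 ± 0.26, SE; limma adjusted p = 0.0043), and Kcnd1, an A-type channel of the Kv4 family, fell from between 3.44 and 4.38 to between 1.22 and 3.22 CPM (-0.79 ± 0.17, SE; limma adjusted p = 0.0027).

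The modifier subunits of the Kv5, Kv6, Kv8 and Kv9 families form channels only together with Kv2 pores. Of 8 expressed, 3 rose and 2 fell, with a median difference of 0.33. Kcnf1 had the largest fall of any channel gene on the log2(CPM + 0.5) scale, although the ratio of the mean CPM was larger for the low Kcnq5. Its CPM was 9.73, 7.84, 11.6 and 8.12 in wild-type MMI, 0.652, 0.687, 0.649 and 0.916 in wild-type +T3, 9.06, 7.33, 5.36, 6.44 and 13.05 in Thrb-KO MMI and 2.74, 2.48, 2.79, 2.21 and 1.40 in Thrb-KO +T3. T3 lowered it in both genotypes without overlap, with log2 fold changes of -2.99 ± 0.22 (SE; limma adjusted p = 7.91e-09) in wild type and -1.60 ± 0.20 (SE; limma adjusted p = 4.30e-05) in Thrb-KO. Kcng4 rose in wild type from 3.65, 2.74, 3.93 and 2.79 to 10.1, 9.04, 9.65 and 15.4 CPM, with groups apart (1.59 ± 0.15, SE; limma adjusted p = 3.32e-07). Kcng1 rose from between 0.761 and 2.71 to between 3.73 and 7.25 CPM (1.52 ± 0.26, SE; limma adjusted p = 2.82e-04), and Kcns1, near the detection limit, from between 0.218 and 0.496 to between 1.29 and 2.03 CPM (1.195 ± 0.16, SE; limma adjusted p = 1.69e-05). Kcnv2 fell from between 5.28 and 7.50 to between 1.95 and 4.75 CPM (-1.01 ± 0.21, SE; limma adjusted p = 0.0018).

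The Kv7 genes encode slowly activating channels, including the M current that hormones acting through Gq can shut. Of 5 expressed, 3 fell with T3 in wild-type mice, with a family median of -0.93. Kcnq5 was the clearest. Its CPM was 3.37, 2.74, 2.89 and 2.50 in wild-type MMI but 0.0900, 0.110, 0.162 and 0.209 in wild-type +T3, 0.342, 0.0655, 0.199, 0.0986 and 0.128 in Thrb-KO MMI and 0.0543, 0.111, 0.143, 0.189 and 0 in Thrb-KO +T3. Only wild-type MMI stood out, and in the other 14 libraries the highest value was 0.342 CPM. The single library without a read allows up to 0.140 CPM, the level of 3 reads at its depth, a limit that covers counting error only. The wild-type difference was -2.39 ± 0.14 (SE; limma adjusted p = 4.19e-10), and an exon of a gene on the opposite strand, Gm16705, overlaps the transcript. Kcnq3, the partner subunit of most M channels, fell from between 0.798 and 1.77 to between 0.162 and 0.450 CPM (-1.06 ± 0.25, SE; limma adjusted p = 0.0041), and Kcnq1, which forms the slow cardiac delayed rectifier, from between 6.96 and 8.30 to between 3.04 and 4.45 CPM (-0.93 ± 0.14, SE; limma adjusted p = 6.66e-05).

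In the EAG, ERG and ELK family, 2 of 8 genes fell in wild-type mice and the median difference was -0.04. ERG currents are known in pituitary lactotrophs, where they are inhibited by TRH. Kcnh7, an ERG gene, measured 5.56, 6.09, 4.13 and 5.40 CPM in wild-type MMI and 1.51, 1.79, 1.05 and 1.07 in wild-type +T3 (-1.65 ± 0.20, SE; limma adjusted p = 4.43e-06), and 5.02, 5.47, 4.70, 4.80 and 4.57 in Thrb-KO MMI and 2.47, 3.23, 1.33, 2.24 and 1.35 in Thrb-KO +T3 (-1.10 ± 0.18, SE; limma adjusted p = 9.02e-04). The groups were apart in both genotypes. An exon of Gca on the opposite strand overlaps it. Kcnh5, of the EAG type, fell from between 1.42 and 3.32 to between 0.405 and 1.28 CPM in wild type (-1.12 ± 0.27, SE; limma adjusted p = 0.0053).

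Of 8 pore genes in the group of calcium- and sodium-activated channels and their relatives, only Kcnt1, the sodium-activated Slack channel, was called. It rose from 29.2, 26.7, 25.3 and 25.8 CPM in wild-type MMI to 96.7, 70.3, 54.1 and 71.1 with T3, with all 4 hyperthyroid libraries above all hypothyroid ones (1.40 ± 0.13, SE; limma adjusted p = 1.47e-07). In Thrb-KO mice it measured 27.8 to 33.4 and 33.3 to 40.0 CPM. The BK pore gene Kcnma1 was not called, but 3 of its β subunit genes were. Kcnmb4, which slows BK gating, fell from 36.8, 30.4, 45.8 and 44.7 to 10.4, 7.75, 10.4 and 11.3 CPM in wild type without overlap (-1.93 ± 0.15, SE; limma adjusted p = 1.22e-08), and held 24.2 to 31.3 and 18.9 to 26.1 CPM in the Thrb-KO groups. Exons of 2 genes on the opposite strand, 1700058G18Rik and 4933400F03Rik, overlap it. Kcnmb2, which makes BK channels inactivate, rose from 15.8, 18.1, 15.3 and 20.6 to 28.1, 25.3, 25.5 and 34.9 CPM (0.69 ± 0.13, SE; limma adjusted p = 5.60e-04), and Kcnmb3 fell from between 0.525 and 0.856 to between 0.0811 and 0.292 CPM (-0.70 ± 0.15, SE; limma adjusted p = 0.0027). The auxiliary genes in all had 1 rise and 4 falls among 12. The other falls were Kcnip2, from between 2.87 and 3.54 to between 1.34 and 2.47 CPM (-0.61 ± 0.15, SE; limma adjusted p = 0.0051), and Kcnip4, from between 2.47 and 3.94 to between 0.852 and 2.39 CPM (-0.82 ± 0.23, SE; limma adjusted p = 0.017), both calcium-binding partners of Kv4 pores.

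Kcnmb2 also held overlapping TRβ and T3-regulated ATAC peaks, and the shared bases of the pair with a direct repeat are shown for the same reason as those at Kcnk1 and Kcnk5. They lie in an intron at chr3:32076980-32077150, are read on the plus strand of mm9 and carry the repeat units in capitals.
Kcnmb2: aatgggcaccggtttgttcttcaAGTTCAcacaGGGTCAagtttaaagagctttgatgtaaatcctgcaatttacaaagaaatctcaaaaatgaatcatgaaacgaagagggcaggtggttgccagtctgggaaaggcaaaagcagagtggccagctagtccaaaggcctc
The TRβ peak there held 26 reads against 2 in controls, and the repeat matched 10 of 12 bases.

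Inward rectifiers pass current best near the resting potential. Of 11 expressed, 2 rose and 3 fell, with a median difference of -0.05. Kcnj12, a strong rectifier of the Kir2 family, was at 0.285, 0.204, 0.161 and 0.0725 CPM in wild-type MMI and 2.52, 4.04, 1.05 and 2.67 in wild-type +T3, the largest rise of any channel gene (2.08 ± 0.23, SE; limma adjusted p = 2.12e-06). All 10 Thrb-KO libraries remained at or below 0.360 CPM. Kcnj10, known from glia, rose from between 8.20 and 10.3 to between 13.2 and 18.0 CPM (0.69 ± 0.11, SE; limma adjusted p = 1.81e-04). Falls were found for Kcnj1, a weak rectifier known from the kidney, from between 0.826 and 1.68 to between 0.105 and 0.472 CPM (-1.17 ± 0.18, SE; limma adjusted p = 1.03e-04), Kcnj4 from between 0.758 and 1.28 to between 0.243 and 0.562 CPM (-0.76 ± 0.16, SE; limma adjusted p = 0.0019) and Kcnj2 from between 7.88 and 8.48 to between 4.16 and 7.23 CPM (-0.62 ± 0.14, SE; limma adjusted p = 0.0039). The latter 2 also belong to the Kir2 family, whose members thus moved in both directions.

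Some wild-type calls rested on single libraries or on one set of libraries, all with the direction unchanged. Kcna1 was not called without wild-type MMI replicate 3 (0.90; adjusted p = 0.071) or 4 (0.94; 0.062) or +T3 replicate 2 (0.74; 0.083), and Kcnip4 not without MMI replicate 2 (-0.71; 0.058) or +T3 replicate 3 (-0.62; 0.057) or 4 (-0.68; 0.064), all by limma. The other losses came from the 1.5-fold limit. Kcnip2 missed it without MMI replicate 1 (-0.57), +T3 replicate 3 (-0.48) or +T3 replicate 4 (-0.57), Kcnj2 without +T3 replicate 3 (-0.57) or 4 (-0.53), and Kcnk1 without +T3 replicate 4 (0.58). Kcnk2, which had passed it narrowly, missed it without MMI replicate 1 (0.58) or 2 (0.56) or +T3 replicate 1 (0.58) or 4 (0.57). Within replicates 1 and 2 alone Kcnip2, Kcnip4, Kcnj2, Kcnk1 and Kcnv2 fell below the limit, at -0.43, -0.53, -0.41, 0.57 and -0.55, and within replicates 3 to 5 Kcnk2 did (0.53) while Kcnd1 had an adjusted p of 0.073 (-0.80). Kcnj2 also missed the limit with TMM scaling (-0.58), by edgeR (-0.58) and by DESeq2 (-0.57), and Kcnk2 when all transcripts of the gene were summed (0.56). A pseudocount of 1 brought Kcnip2, Kcnj2, Kcnj4 and Kcnmb3 below it, at -0.52, -0.58, -0.53 and -0.45.

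**Figure D3:**
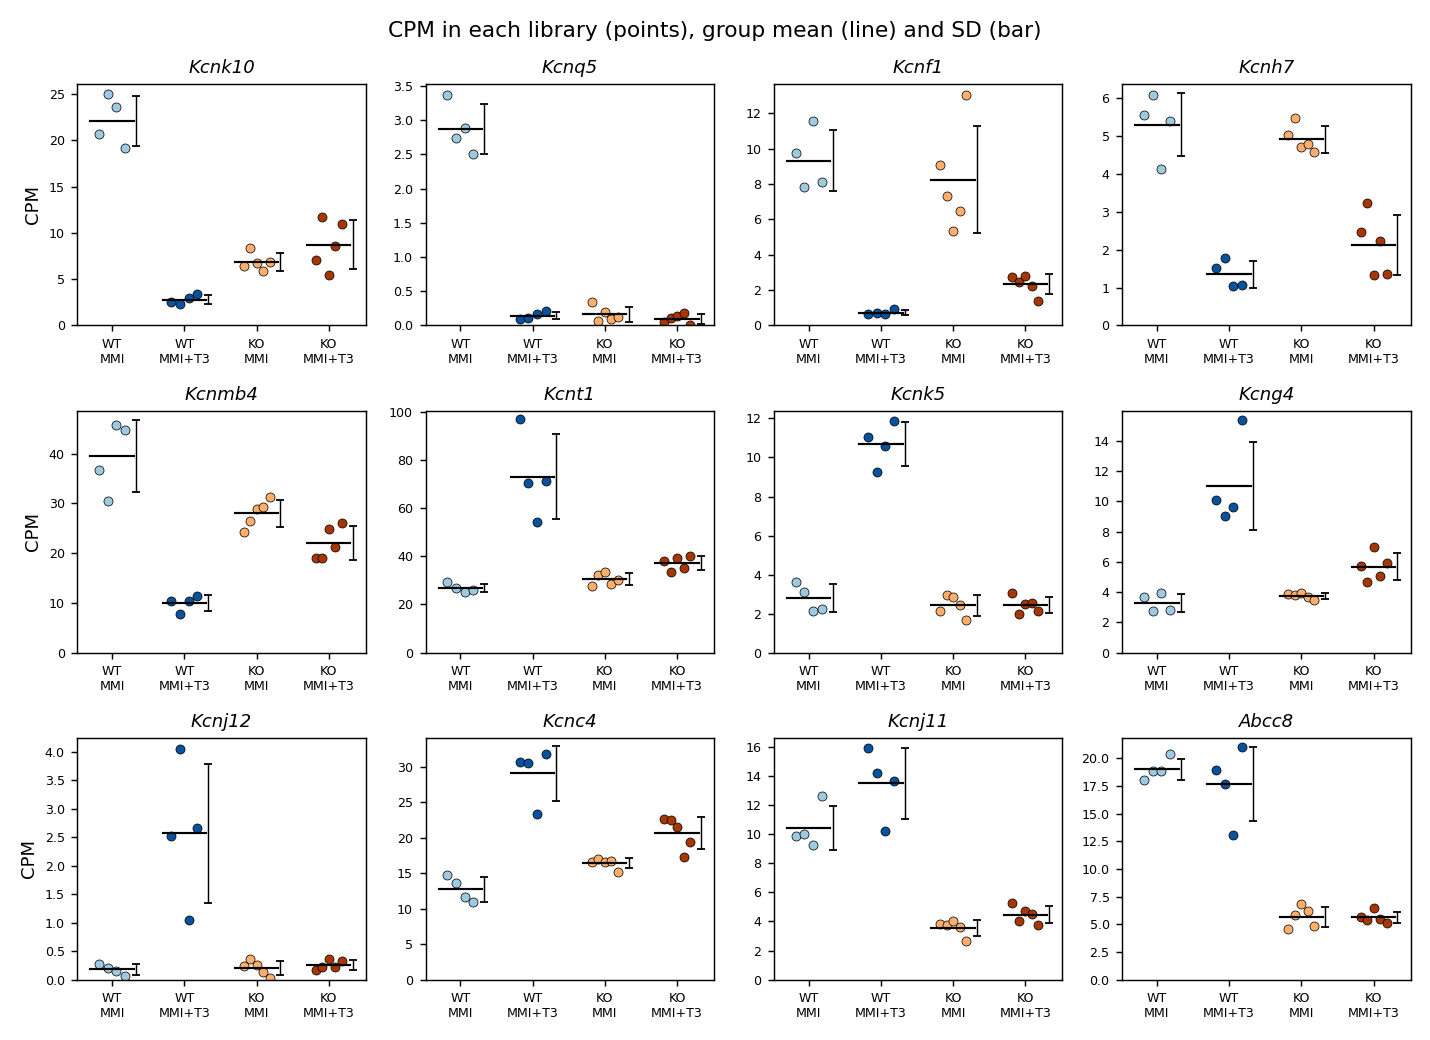
CPM in each library for 11 channel genes and Abcc8 in the 4 groups (points), with the group mean (line) and SD (bar); each panel has its own linear axis from 0. Kcnk10, Kcnq5, Kcnf1 and Kcnmb4 fell and Kcnt1, Kcnk5, Kcng4, Kcnj12 and Kcnc4 rose in wild type, while Kcnj11 and Abcc8 differed by genotype in both hormone states.

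Set beside each other, the 30 genes called in wild type kept their sign in Thrb-KO mice in 26 cases (86.7%, against 89.2% of the 1707 genes called over the whole table), and the Thrb-KO difference was the smaller in all 30 (98.5% of all genes called). Their median size was 1.11 log2 units in wild type and 0.318 in Thrb-KO, and over all genes called it was 0.889 and 0.252. These genes were picked on the wild-type value, so part of the smaller size follows from the choice. The interaction term tests the difference between both responses directly. It was called for 12 channel genes, where 5.15% of all genes were called. T3 lowered Kcnk10, Kcnq5, Kcnf1, Kcnmb4 and Kcnmb3 less, or not at all, in Thrb-KO mice, with interaction values of 3.07 ± 0.25 (SE; limma adjusted p = 2.19e-07), 2.24 ± 0.19 (adjusted p = 2.80e-07), 1.39 ± 0.29 (0.0057), 1.58 ± 0.19 (3.41e-05) and 1.21 ± 0.21 (9.66e-04). The differences seen in wild type for Kcnj12, Kcnk5, Kcns1, Kcnt1, Kcng4, Kcnc4 and Kcnmb2, all rises, were smaller or absent in Thrb-KO mice, with interaction values of -1.96 ± 0.31 (SE; limma adjusted p = 5.02e-04), -1.76 ± 0.22 (4.33e-05), -1.25 ± 0.21 (9.15e-04), -1.12 ± 0.17 (2.96e-04), -1.07 ± 0.21 (0.0029), -0.83 ± 0.16 (0.002) and -0.77 ± 0.17 (0.0085). Kcnmb3 had opposite signs, with -0.70 ± 0.15 in wild type and 0.51 ± 0.14 in Thrb-KO, the latter not called. For Kcnh7, called in both genotypes like Kcnf1, the interaction was 0.56 ± 0.26 (SE; limma adjusted p = 0.32). Within replicates 3 to 5 alone the interaction was not called for Kcnf1 (1.32; adjusted p = 0.15), Kcng4 (-1.11; 0.051) or Kcnmb2 (-0.83; 0.065). With replicate number as a block, 4 more were called: Kcnb2, Kcng1, Kcnh5 and Kcnq1, at adjusted p of 0.0044, 0.028, 0.012 and 0.029 for differences of 0.78, -0.98, 0.62 and 0.62.

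The genotypes were also compared within each hormone state, using the same libraries as the responses above. Under MMI, 6 channel genes were called, where 4.16% of all genes were. Kcnq5, Kcnk10, Kcnj11, Kcnk9 and Kcnq1 were lower in Thrb-KO mice and Kcnab1 was higher. With T3, 16 were called, where 6.35% of all genes were, 7 higher and 9 lower. The genotypes did not overlap for 13 channel genes under MMI (14.4% of all genes) and 21 with T3 (11.9%), and within Thrb-KO mice the hormone states did not overlap for 8 (5.91%). Lower with T3 were Kcnk5 (-1.93 ± 0.16, SE; limma adjusted p = 8.10e-08), Kcnj12, Kcns1, Kcnj11, Kcng1, Kcnk9, Kcnt1, Kcng4 and Kcnj10 (-1.93, -1.59, -1.48, -1.33, -1.12, -0.94, -0.88 and -0.69). Higher with T3 were Kcnk10, Kcnq3, Kcnf1, Kcnv2, Kcnmb4, Kcnh5 and Kcnmb3 (1.45, 1.42, 1.18, 1.17, 1.11, 0.92 and 0.78). Kcnk10 was thus lower than wild type in the hypothyroid gland (-1.62 ± 0.18, SE; limma adjusted p = 5.15e-06) and higher in the hyperthyroid gland (1.45 ± 0.18, SE; limma adjusted p = 1.17e-05). For Kcnq5 the genotypes differed under MMI (-2.35 ± 0.13, SE; limma adjusted p = 1.31e-09) and by -0.11 ± 0.13 with T3. Kcnq1 had the same form, with -0.79 ± 0.13 (SE; limma adjusted p = 6.29e-04) under MMI and -0.17 ± 0.13 with T3.

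**Figure D4:**
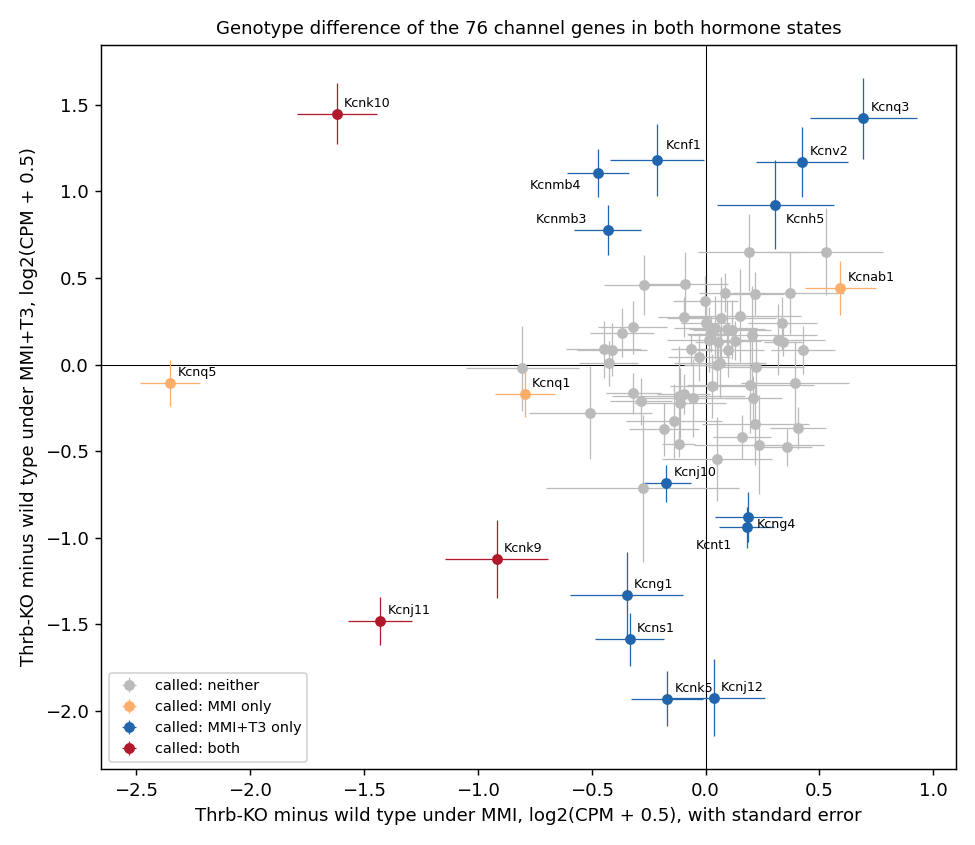
Thrb-KO minus wild type for the 76 channel genes under MMI (horizontal) and with T3 (vertical), in log2(CPM + 0.5) with standard errors; colours mark the state in which the difference was called. Kcnj11 and Kcnk9 lay low on both axes, Kcnk10 had opposite signs (-1.62 and 1.45), Kcnq5 differed only under MMI (-2.35), and Kcnk5 and Kcnj12 (both -1.93) only with T3.

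Kcnj11 and Kcnk9 differed by genotype in both states and were not called for T3 in either genotype. Kcnj11 encodes the pore of the ATP-sensitive (KATP) channel, which couples metabolism to firing. Its CPM was 9.85, 9.97, 9.27 and 12.6 in wild-type MMI, 15.9, 14.2, 10.2 and 13.6 in wild-type +T3, 3.83, 3.73, 4.00, 3.62 and 2.65 in Thrb-KO MMI and 5.30, 4.06, 4.72, 4.54 and 3.73 in Thrb-KO +T3. Every Thrb-KO library lay below every wild-type library, and the genotype difference was -1.43 ± 0.14 (SE; limma adjusted p = 1.39e-06) under MMI and -1.48 ± 0.14 (SE; limma adjusted p = 5.37e-07) with T3. Abcc8 encodes SUR1, the regulatory subunit of the same channel, and its gene ends 4286 bp from Kcnj11. It measured 18.0, 18.8, 18.8 and 20.3 CPM in wild-type MMI, 18.9, 17.7, 13.1 and 21.0 in wild-type +T3, 4.55, 5.89, 6.82, 6.21 and 4.89 in Thrb-KO MMI and 5.68, 5.37, 6.43, 5.52 and 5.13 in Thrb-KO +T3. The genotypes were again apart in both states (-1.67 ± 0.13, SE, limma adjusted p = 7.61e-08; and -1.55 ± 0.13, adjusted p = 9.84e-08), while the T3 difference was -0.12 ± 0.14 in wild type and 0.00 ± 0.12 in Thrb-KO, neither called. Kcnk9, an acid-inhibited leak channel, held 33.1, 37.9, 21.8 and 22.1 CPM in wild-type MMI and 16.6, 15.5, 14.7, 13.8 and 12.5 in Thrb-KO MMI (-0.92 ± 0.22, SE; limma adjusted p = 0.015), and 41.7, 40.9, 19.5 and 32.5 and 16.3, 19.3, 12.2, 17.0 and 9.93 with T3 (-1.12 ± 0.22, SE; limma adjusted p = 0.0019). The genotypes did not overlap in either state. The MMI call for Kcnk9 was lost without wild-type MMI replicate 1 (-0.84; adjusted p = 0.057) or 2 (-0.77; 0.060) and within replicates 3 to 5 (-0.67; 0.087). Kcnab1, a β subunit of Kv1 channels, was 3.70 to 5.45 CPM in wild-type and 6.35 to 7.85 in Thrb-KO MMI (0.59 ± 0.16, SE; limma adjusted p = 0.024). That call was lost without wild-type MMI replicate 3 (0.50; adjusted p = 0.0996) or 4 (0.55; 0.085) or Thrb-KO MMI replicate 3 (0.56; 0.063) or 4 (0.58; 0.055), within replicates 1 and 2 (0.31), and by the fold limit with TMM scaling (0.58) or a pseudocount of 1 (0.55). With T3, the call for Kcnh5 was lost without wild-type +T3 replicate 3 (0.74; adjusted p = 0.076) or 4 (0.84; 0.064) or Thrb-KO +T3 replicate 1 (0.81; 0.057) or 2 (0.84; 0.054), that for Kcnf1 within replicates 3 to 5 (1.01; 0.053), and that for Kcnmb3 with a pseudocount of 1 (0.51). With replicate number as a block, Kcnb2, Kcng3 and Kcnq3 were also called under MMI (adjusted p = 7.12e-04, 0.01 and 0.012), Kcna3, Kcng3 and Kcnip4 with T3 (0.0042, 0.0022 and 0.0036), and Kcng3 for the wild-type response (0.0061), where it had differed by -0.65 ± 0.27.

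Genes outside the Kcn symbols whose products work with potassium channels were examined in lists. Of 10 channel partner genes, 1 rose and 2 fell with T3 in wild-type mice, with a list median of -0.08. Dpp10, an auxiliary subunit of Kv4 channels, fell from 17.6, 20.8, 24.6 and 30.2 to 5.13, 8.79, 7.91 and 11.1 CPM (-1.47 ± 0.19, SE; limma adjusted p = 1.59e-05), and was lower in Thrb-KO than wild-type MMI libraries (-1.15 ± 0.18). Lrrc52, a BK γ subunit, fell in both genotypes (-0.82 ± 0.13 in wild type and -0.63 ± 0.12 in Thrb-KO, the latter not called with a pseudocount of 1, at -0.52, or within replicates 1 and 2, at -0.40), and Lgi1, a secreted protein that acts on Kv1 channels, rose by 0.78 ± 0.21. Another BK γ subunit, Lrrc38, was higher in Thrb-KO mice in both states (1.09 ± 0.19 and 0.61 ± 0.19). Of 11 sodium-potassium pump genes tested, 3 fell in wild type: Fxyd5 (-2.47 ± 0.27) and the β subunits Atp1b2 (-1.30 ± 0.12) and Atp1b3 (-0.60 ± 0.09), the last below the fold limit with TMM scaling (-0.54), by edgeR (-0.54) and DESeq2 (-0.53), within replicates 1 and 2 (-0.51), and without wild-type MMI replicate 3 (-0.57) or 4 (-0.56) or +T3 replicate 1 (-0.53). Of 5 potassium-chloride cotransporter genes, Slc12a4 (0.68 ± 0.10) and Slc12a7 (0.71 ± 0.12) rose.

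Marker genes of the cells a pituitary sample can hold were summed per library. Of 14 endocrine genes, Gh and Prl rose and Tshb, Cga and Trhr fell in wild type, Prl rose and Tshb, Cga and Trhr fell in Thrb-KO mice, and the summed CPM was 69914 to 98582 in wild-type MMI, 107750 to 224504 in wild-type +T3, 77220 to 93867 in Thrb-KO MMI and 109567 to 136842 in Thrb-KO +T3. When genes with low values were kept, limma called neither Gh (adjusted p = 0.92) nor Prl (0.073) in wild type, nor Prl in Thrb-KO (0.23). No gene of the melanotroph (3 tested), stem and folliculostellate (5), endothelial (6), mural (7), immune (6), blood (4) or skeletal muscle (1) lists was called by limma, edgeR or DESeq2 for T3 in wild-type mice. Of these 32 genes, 8 had an unadjusted limma p below 0.05, a count not made over all genes. The summed blood genes did not overlap, at 28.7 to 56.4 CPM in wild-type MMI and 66.2 to 80.1 in wild-type +T3. In the Thrb-KO groups they ran from 24.7 to 63.0 and from 26.7 to 81.4 CPM. The wild-type sums of the other lists just named overlapped. The part of blood in the T3 responses was not tested. Of 7 neural and glial genes only Slc17a6 was called for T3 in wild type (-0.85 ± 0.10). Acta1, Myh4, Myh1, Tnnt3 and Mylpf of the muscle list and Olig2 of the neural and glial list were below 0.5 CPM and not tested. Between genotypes, the endocrine genes Nr5a1, Pou1f1 and Trhr were higher in Thrb-KO mice with T3 (0.61 ± 0.13, 0.63 ± 0.17 and 0.77 ± 0.13), and Trhr was lower under MMI (-1.37 ± 0.13). Slc17a6, a vesicular glutamate transporter gene, was 16.5 to 19.3 and 8.27 to 10.98 CPM in the wild-type groups and 66.0 to 76.2 and 67.1 to 83.8 in the Thrb-KO groups, the only neural or glial gene called, and the summed list ran from 70.2 to 93.3 CPM over wild-type and from 139.6 to 158.7 over Thrb-KO libraries. Of 6 immune genes, 4 were lower in Thrb-KO mice under MMI (C1qa, C1qb, Csf1r and Lyz2) and 2 with T3 (C1qa and Lyz2), with sums of 77.7 to 146.6 CPM over wild-type and 60.0 to 81.3 over Thrb-KO libraries. The melanotroph gene Pcsk2 was lower in Thrb-KO mice under MMI (-0.68 ± 0.16), and the stem cell gene Aldh1a2 with T3 (-0.60 ± 0.11). The part of these cells in the genotype differences of Kcnj11, Kcnk9 and the other channel genes was not tested.

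TRβ binding sites in untreated pituitary were found within 20 kb of 35 of the 75 channel genes with mm9 coordinates, where 39.6% of all genes tested had one. In cerebral cortex 32 had one (33.4% of all genes), and 11 had a T3-regulated ATAC peak (7.65%). Distances run from the gene body, so a long gene has a wider window. The part of gene length in these shares was not tested. The 64 pituitary peaks at channel genes held a median of 17 reads from tagged mice, against 18 over all pituitary peaks, and the 45 cortex peaks held 13, the same as all cortex peaks. Channel genes called in the wild-type T3 response had a pituitary peak in 14 of 30 cases and the other channel genes in 21 of 45. For cortex peaks the counts were 12 of 30 and 20 of 45, and for ATAC peaks 6 of 30 and 5 of 45. These counts pool rises and falls, and more of the called channel genes fell than rose. Of the 14 called genes with a pituitary peak 8 had risen, of the 12 with a cortex peak 6, and of the 6 with an ATAC peak 4. The others had fallen. The same counts were not made for all genes called. A direct repeat of the form described above was present in 14 of the 64 pituitary peaks (20.9% of all pituitary peaks had one), 5 of the 45 cortex peaks (9.3%) and 6 of the 15 ATAC peaks (30.9%). Peaks called on merged libraries give no spread between replicates, so the reads below describe these pools.

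The pituitary peak with most reads lay at Kcnj11, at chr7:53368601-53369100, with 72 reads in tagged and 4 in control mice, 15.0-fold enriched with an FDR of 4.58e-57 from the peak caller. It was 12994 bp upstream of the Kcnj11 start and inside Abcc8, so it cannot be assigned to either gene by position. Next were a peak over the start of Kcna5 (63 reads against 7), one in an intron of Kcnk2 (62 against 5), one in an intron of Kcnn2, a small-conductance calcium-activated channel gene (55 against 5), and the upstream peak of Kcnk1 described above (50 against 2). The wild-type T3 difference was 0.02 ± 0.11 for Kcna5 and -0.17 ± 0.11 for Kcnn2, and neither was called. The peak at chr2:55385201-55385600 in an intron of Kcnj3, a G protein-gated inward rectifier gene, had 45 reads against 0 and was also present in cortex (26 against 0) and in the ATAC list. Kcnj3 RNA differed by 0.33 ± 0.29 (limma adjusted p = 0.54). The peaks just named at Kcna5, Kcnk2 and Kcnn2 held no such repeat. The repeats in the Kcnj11 and Kcnj3 peaks are shown because these peaks held many reads. Those matching 11 of 12 bases at Kcnk1 and Kcnk6 are shown because they match best. Capitals mark the repeat units, read 5′ to 3′ on the strand named.
Kcnj11, chr7:53368912-53368927, plus strand: AGGGCAtcctAGGCCA
Kcnj3, chr2:55385306-55385321, minus strand: AGGCCAcatgAGGACA
Kcnk1, chr8:128501676-128501691, plus strand: AGGTCAcctcAGGTGA
Kcnk6, chr7:30023530-30023545, plus strand: AGGTCActccAGGTCG
The Kcnj11 and Kcnj3 repeats matched 10 of 12 bases. The peak with the Kcnk6 repeat lay inside Yif1b, 5910 bp upstream of Kcnk6, a leak channel gene of the Kcnk1 group, and was bound in pituitary (23 reads against 5) and cortex (10 against 1).

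The 11 genes with a T3-regulated ATAC peak were Kcna2, Kcnc1, Kcnd3, Kcnh2, Kcnip4, Kcnj3, Kcnk1, Kcnk5, Kcnmb2, Kcnmb4 and Kcnn2. Of these, T3 raised the RNA of Kcnc1, Kcnk1, Kcnk5 and Kcnmb2 in wild-type mice and lowered that of Kcnmb4 and Kcnip4. Kcnmb2 had 3 such peaks, all in introns, and Kcnc1 and Kcnj3 had 2 each. At Kcnc1 neither ATAC peak overlapped a TRβ peak of untreated tissue, although both held a direct repeat, one in an intron 5456 bp from the start and one in the neighbouring gene Sergef, and the repeats are shown because they have the same pair of repeat units.
Kcnc1, chr7:53657350-53657365, plus strand: GAGTCAgctgAGGTCA
Kcnc1, chr7:53704934-53704949, minus strand: GAGTCAgcccAGGTCA
The ATAC peak of Kcna2 lay nearer to another gene, 357 bp from the start of A930002I21Rik. The genes with the largest T3 responses were not all marked in this way: Kcnk10 and Kcnj12 had no T3-regulated ATAC peak within 20 kb, nor had Kcnq5 and Kcnf1. Kcnk10 and Kcnf1 also had no pituitary TRβ peak there. Kcnj12 had one of 14 reads (2 in controls), 9116 bp upstream, and Kcnq5 one of 10 reads (1 in controls) in an intron.

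**Figure D5:**
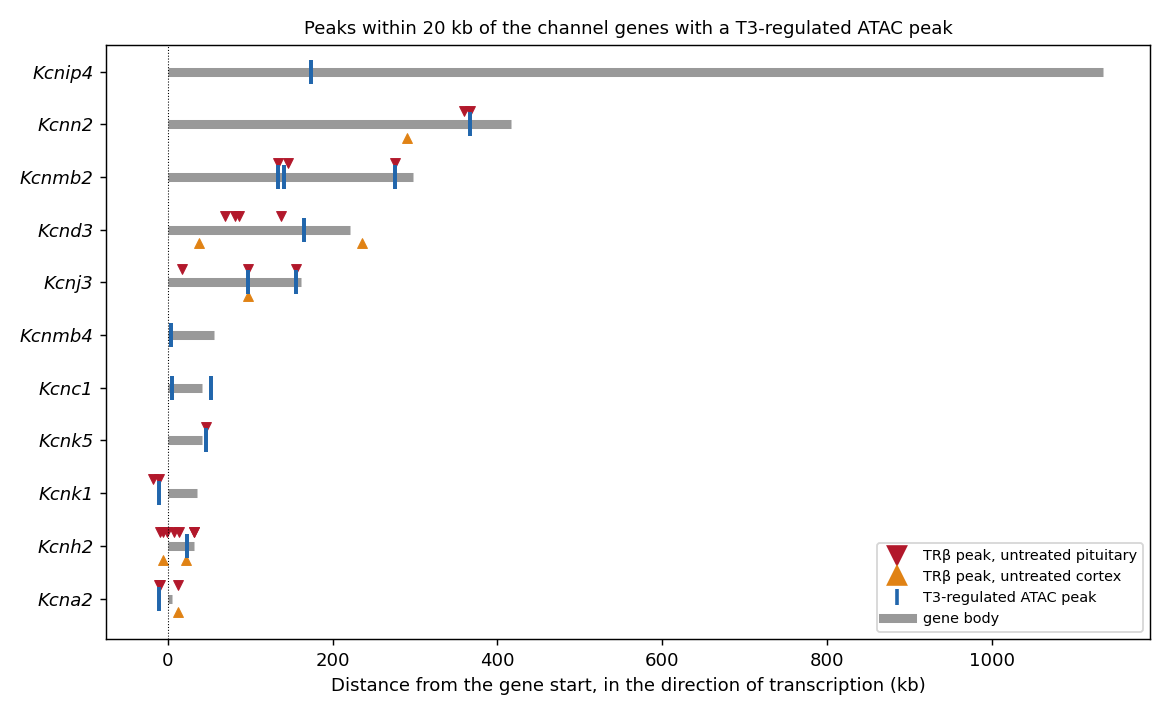
Peaks within 20 kb of the 11 channel genes with a T3-regulated ATAC peak, plotted as distance from the gene start in kb along the direction of transcription; grey bars are gene bodies, red and orange triangles TRβ peaks of untreated pituitary and cortex, and blue ticks ATAC peaks. ATAC peaks overlapped a pituitary peak at Kcnn2, Kcnmb2, Kcnj3, Kcnk5, Kcnk1 and Kcna2, stood apart from them at Kcnd3 and Kcnh2, and had none within 20 kb at Kcnip4, Kcnmb4 and Kcnc1.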

How the data were processed

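RNA-seq was made from pituitary pools of 18 samples. The authors mapped single-end reads to RefSeq transcripts of mouse build mm9 (the methods name BBMap, and the submitters' processing notes list STAR) and deposited counts per 1000000 reads (CPM) for 29082 transcripts. CPM are not divided by length and carry no correction for composition, so a gene with a very high share lowers the others. The deposited CPM gave back whole reads within 0.1 read for 100% of values, with 21453548 to 55273749 reads per library. TRβ binding was measured by chromatin affinity purification of the tagged receptor. The authors merged replicates, called peaks with SICER 1.1 at 50-bp windows, and deposited the read counts of tagged and control pools, the fold ratio, and the false discovery rate and p-value of every peak. The deposited ATAC list gives an adjusted p-value per T3-regulated peak, from Bowtie2, MACS2 and edgeR according to the submitters. Hypothyroid and hyperthyroid TRβ binding and ChIP-seq were not analysed here.

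Groups followed the sample titles. The untreated BirA controls carry a HAB;BirA genotype label that goes against their titles, and the comparison of tagged with control reads rests on the titles. The transcript with the highest mean CPM stood for each gene, which matters for the 19 channel genes with several transcripts. Genes with a mean above 0.5 CPM were fitted in one model of the 4 groups with limma 3.58.1 (trended variance) in R 4.3.3 on log2(CPM + 0.5), with 5 contrasts. Adjusted p-values (Benjamini-Hochberg) ran over all 15042 genes, and calls needed p below 0.05 and 1.5-fold. Alternatives were edgeR 4.0.16 quasi-likelihood and DESeq2 1.42.0 on the whole reads, TMM scaling, pseudocounts of 0.1 and 1, filters on low values, summed transcripts, replicate and library set blocks, and leaving out libraries. The fits were tested on simulated data. Peaks within 20 kb of a gene body were assigned to it with GENCODE vM1 coordinates (build NCBIM37, which is mm9), for 75 of 76 channel genes, and sequences were read from that genome. Python 3.11.15 was used for these steps.

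The channel genes and the lists (channel partners, sodium-potassium pump, potassium-chloride cotransport, and endocrine, melanotroph, stem and folliculostellate, endothelial, mural, immune, blood, neural and glial, and skeletal muscle markers) were chosen with earlier results of these data known. Named channel genes were, per contrast, up to 15 called genes with the largest change, most of the 10 most abundant, those with an ATAC peak, the 5 with the pituitary peak of most reads, and those nearest the limit. From the lists, up to 4 genes per list called in wild type and partners of named genes were named. Further called genes, those that a block added, Lars2 and single markers were named after their values were seen, to account for all calls. Some named genes and one list are not reported here.

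Replicate numbers were checked for pairing. Deviations from the group means correlated at 0.133 to 0.774 between libraries of the same number (25 pairs), at 0.257 to 0.699 between other libraries of the same set, replicates 1 and 2 or 3 to 5 (36 pairs), and at -0.742 to -0.243 across sets (60 pairs), with medians of 0.472, 0.486 and -0.518. The numbers thus shared no more than their library set. The labels name separate pools. The main model had no block, so its p-values and standard errors measure the spread between pools with the difference between library sets included.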

Additional observations from a re-analysis of the deposited data

Results flagged for a closer look

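Of 132 sets of libraries examined (33 named channel genes in 4 groups), 8 had a library far from the others of its group by Dixon's test, which flags about 1 in 20 groups by chance. In the wild-type +T3 group, replicate 4 was the highest for Kcnf1 (0.916 CPM, the others 0.649 to 0.687), Kcng4 (15.4, the others 9.04 to 10.1) and Kcnk1 (60.4, the others 53.2 to 53.9), and replicate 3 was the lowest for Kcnc4 (23.4, the others 30.6 to 31.8). In the Thrb-KO MMI group, replicate 2 was the highest for Kcna1 (3.40 CPM, the others 1.22 to 1.71) and replicate 3 for Kcnip2 (2.68, the others 2.27 to 2.37), while replicate 5 was the lowest for Kcnc4 (15.2, the others 16.5 to 17.0) and Kcnj11 (2.65, the others 3.62 to 4.00).

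The response to T3 differed between the genotypes, by the interaction term in limma, for 12 channel genes. The Thrb-KO response minus the wild-type response, in log2 units, was 3.07 for Kcnk10, 2.24 for Kcnq5, 1.58 for Kcnmb4, 1.39 for Kcnf1 and 1.21 for Kcnmb3. It was -1.96 for Kcnj12, -1.76 for Kcnk5, -1.25 for Kcns1, -1.12 for Kcnt1, -1.07 for Kcng4, -0.83 for Kcnc4 and -0.77 for Kcnmb2.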

How the results depend on the processing

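Of 66 calls of channel genes over the 5 comparisons, 48 stood under every one of up to 31 alternatives that tested them, 18 were lost under at least 1, and none changed sign. Restricting the test to genes above 1 CPM in all libraries left 18 calls for the wild-type response, 1 for Thrb-KO, 7 for the interaction and 9 for the hyperthyroid genotype comparison, since low genes were no longer tested, and all 40 calls it tested were kept. The Thrb-KO response had 2 calls, but 4 by edgeR, 5 by DESeq2 and 6 without the fold limit. Leaving out 1 library gave 25 to 30 calls for wild type, 2 to 4 for Thrb-KO, 12 to 14 for the interaction, 5 to 7 under MMI and 15 to 18 with T3. With replicate number as a block the counts were 31, 2, 16, 9 and 19 in the same order, no call was lost, and no other call than those named above changed. With library set as the block they were 31, 2, 18, 9 and 19, and the interaction calls beyond those of the replicate block were Kcnj1 and Kcnq3. Within replicates 1 and 2 they were 26, 2, 18, 7 and 19 and within replicates 3 to 5 29, 2, 11, 9 and 19, with calls gained as well as lost. Shares of all genes called are not given beside these counts. The counts thus do not show whether channel genes shifted more than others. Over all genes, the wild-type calls split into 692 higher and 1015 lower by limma and 962 and 944 by DESeq2, and the hyperthyroid genotype calls into 494 and 461 by limma and 436 and 686 by edgeR. 

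A pituitary TRβ peak was found for 23 channel genes inside the gene body (22.1% of all genes), 54 within 100 kb (69.5%), and 22 with the better-ranked 50% of the peaks by false discovery rate (23.0%). The cortex counts were 21 (19.0%), 50 (61.6%) and 17 (18.5%). Summed over the 3 peak lists, in which the same site can recur, 25 peaks at channel genes held a direct repeat with up to 2 mismatches, 3 with up to 1 and 62 with up to 3. With 3 allowed, 55.0% of all pituitary, 41.1% of all cortex and 62.2% of all ATAC peaks held one, and with 1 allowed 3.94%, 1.08% and 6.53%. Depth limits Kcnq5 and Kcnj12, which rested on few reads in the groups where they were low, and merged peak lists carry no replicate error. The counts of called genes and of genes with peaks under the other alternatives were within 1.5 times of those reported.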
